A study of Mus musculus with 24 samples.

Results

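The regions described here carried a peak of acetylated histone H3 lysine 27 (H3K27ac) in 1 list of CAST liver and in no other list. Overlapping peaks of the 4 deposited lists (male and female liver of the B6 and CAST strains) were merged on the autosomes into 117616 union regions, counting an overlap of 1 bp or more. A region was kept when its peaks came from exactly 1 list, that list was of CAST, and the region was 600 bp or wider. This gave 1008 members of the 61670 union regions of that width. Of these, 571 were chosen by a call in CAST males (M-called) and 437 by a call in CAST females (F-called). M-called members were thus 0.485% of all union regions and 0.926% of the wide ones, and F-called members were 0.372% and 0.709%. Since the calls and the width chose the members, these counts are a description and not a result.

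Livers came from mice of both sexes and of the strains C57BL/6J (here B6) and CAST/EiJ (here CAST), with no treatment named and an age of 8 weeks in the labels. B6 is a laboratory inbred strain and CAST a wild-derived one. Each group had 5 livers and 1 input library, which makes 20 livers and 4 inputs in all. The authors merged the livers of a group before calling peaks, so each group is 1 list without replicate values. The strain field of the labels contradicts the sample titles for B6 females and CAST males, and groups follow the titles. The lists held between 79862 peaks (B6 male) and 90228 peaks (CAST male), and they do not give the depth in reads. As a check of the tissue, 19 of 21 hepatocyte marker genes had a peak within 1 kb of a coding start in every list, against 2 of 23 immune cell markers, 2 of 14 stellate cell and fibroblast markers, 8 of 12 endothelial markers and 4 of 7 cholangiocyte markers. The part of other liver cells in the members was not tested.

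H3K27ac marks nucleosomes at active promoters and enhancers, and a wide peak usually spans the nucleosomes on both sides of bound factors. Liver is among the tissues with the most sex-biased gene expression in mice. The pituitary releases growth hormone in pulses in males and nearly continuously in females, and the factor STAT5 carries this difference to chromatin together with liver-enriched factors such as HNF6 and forkhead (FOXA) proteins.

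The sequences below show members on which later comparisons turn, each as a 200-base stretch of the plus strand of the B6 reference genome (mm9), so they are not the CAST alleles in which the peaks were called. Capitals mark matches on either strand to TTCNNNGAA (the palindrome bound by STAT5), TGTTTAC (forkhead proteins), CAAAGTCCA (HNF4) or ATCAATA (HNF6). For members with a match the stretch was placed around it, and otherwise at the center of the member. The first 4 are F-called and lie at chr10:33574273-33574472 (9.27 kb from the start of Sult3a1), chr10:33277642-33277841 (intron of Clvs2), chr9:23128239-23128438 (intron of Bmper) and chr7:26730372-26730571 (between genes, 46.5 kb from the start of Cyp2b10).
Sult3a1 member: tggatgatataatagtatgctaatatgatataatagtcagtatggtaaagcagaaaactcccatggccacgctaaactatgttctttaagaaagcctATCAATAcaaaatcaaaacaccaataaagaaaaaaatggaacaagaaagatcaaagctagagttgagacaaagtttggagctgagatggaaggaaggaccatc
Clvs2 member: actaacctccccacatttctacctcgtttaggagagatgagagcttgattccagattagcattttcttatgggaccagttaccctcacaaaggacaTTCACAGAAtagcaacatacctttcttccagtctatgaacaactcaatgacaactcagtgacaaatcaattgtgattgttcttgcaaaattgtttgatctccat
Bmper member: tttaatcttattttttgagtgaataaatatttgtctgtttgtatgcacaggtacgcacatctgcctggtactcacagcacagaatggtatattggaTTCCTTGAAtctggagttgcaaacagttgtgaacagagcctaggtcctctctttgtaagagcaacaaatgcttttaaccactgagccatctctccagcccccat
Cyp2b10 member: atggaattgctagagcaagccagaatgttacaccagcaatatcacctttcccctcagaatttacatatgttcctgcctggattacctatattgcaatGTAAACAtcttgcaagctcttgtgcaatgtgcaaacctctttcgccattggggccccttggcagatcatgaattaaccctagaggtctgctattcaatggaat

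The M-called members shown lie at chr6:58655556-58655755 (between genes, beyond the end of Abcg2), chr10:23957413-23957612 (intron of Moxd1), chr5:87821030-87821229 (between genes, near Ugt2b38) and chr3:18317772-18317971 (between genes, 174.4 kb from the start of Cyp7b1). The last 3 are at genes with male-biased expression in mouse liver.
Abcg2 member: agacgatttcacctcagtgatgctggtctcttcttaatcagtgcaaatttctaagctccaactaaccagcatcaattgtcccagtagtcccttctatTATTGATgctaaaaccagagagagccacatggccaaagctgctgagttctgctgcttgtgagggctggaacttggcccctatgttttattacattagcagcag
Moxd1 member: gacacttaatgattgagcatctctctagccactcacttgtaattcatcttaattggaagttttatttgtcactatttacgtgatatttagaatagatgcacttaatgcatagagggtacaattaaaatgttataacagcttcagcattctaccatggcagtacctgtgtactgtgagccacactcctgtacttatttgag
Ugt2b38 member: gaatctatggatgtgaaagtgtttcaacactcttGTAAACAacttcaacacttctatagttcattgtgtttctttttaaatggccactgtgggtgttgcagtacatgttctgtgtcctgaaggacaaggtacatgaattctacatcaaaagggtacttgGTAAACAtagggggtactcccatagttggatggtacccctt
Cyp7b1 member: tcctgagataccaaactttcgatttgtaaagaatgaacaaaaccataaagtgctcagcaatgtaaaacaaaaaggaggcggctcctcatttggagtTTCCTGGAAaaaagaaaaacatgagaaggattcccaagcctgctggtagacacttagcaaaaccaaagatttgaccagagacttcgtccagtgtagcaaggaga

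The Moxd1 stretch held no match. Across all members, matches to these letters in the central 300 bp had shares near those of wide regions in general, apart from ATCAATA in M-called members. TTCNNNGAA was found in 51 of 571 M-called members (8.93%, 95% Wilson interval 6.86 to 11.6) and in 38 of 437 F-called members (8.70%, 6.40 to 11.7), against 9.24% of all wide union regions. TGTTTAC was found in 5.78% of M-called and 4.81% of F-called members, against 5.29% of all. ATCAATA was found in 5.08% of M-called members (3.56 to 7.20) and 3.89% of F-called members (2.44 to 6.14), against 3.12% of all. CAAAGTCCA was found in 9 M-called (1.58%) and 2 F-called members (0.458%), against 1.16% of all. The intervals of both calls overlapped for each of the 4 motifs. Intervals here and below cover counting error only, since regions of a pooled list are not replicates of a condition.

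Most members were weak and only just wide enough. The median width was 692 bp for M-called members (600 to 2344) and 703 bp for F-called members (600 to 2507). Among regions of a single CAST list at any width, 5.05% of the 11317 male-only regions and 4.62% of the 9453 female-only regions reached 600 bp, with medians of 292 and 290 bp. At the width limit, 46 male-only and 36 female-only regions of 590 to 599 bp were left out, and 44 and 34 of 600 to 609 bp were kept. Median fold enrichment over input, as the peak caller gave it, was 2.28 in M-called members (1.36 to 10.0) and 2.30 in F-called members (1.59 to 5.55). When peaks of a list were ranked by their q-value, the median member stood at percentile 24.8 of the CAST male list or 26.2 of the CAST female list. Only 43 M-called members (7.53%) and 45 F-called members (10.3%) were in the upper 50% of their list. A list without a peak may still hold signal there, and fewer cells with the mark cannot be told apart from less of the mark per cell.

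A few members stood well above the rest. The strongest M-called member lay between genes at chr5:105356456-105357640, with a fold enrichment of 10.0 at percentile 92.8, and its nearest coding start was that of the predicted gene Gm3209 at 41.3 kb. Peak numbers missing from the deposited B6 male list fall around this member, whose part in the call was not tested, and 20.7% of its 32-base windows recur elsewhere on the autosomes. The next was at chr11:92678646-92680341, with a fold enrichment of 9.53, and lay 279.4 kb from the start of Car10, a carbonic anhydrase-related gene, and 547243 bp from any peak of another list. Below these came members near Abcg2 (4.42-fold, percentile 71.0), Rpl13 (3.03-fold, 70.6) and Farp1 (4.15-fold, 68.1). The ranking of F-called members began with genes of steroid and drug metabolism. The member 9.27 kb from the start of Sult3a1, a sulfotransferase, had percentile 82.3 with a fold enrichment of 2.92, and the member at chr5:146359154-146360105 near Cyp3a41b, a female-specific P450, had percentile 81.6 with 5.55. Then came members in introns of Gfm2 (5.33-fold, percentile 80.2), which encodes a mitochondrial translation factor, and Bmper (3.64-fold, 77.5), which encodes a secreted BMP-binding protein, and one near Nlrp4a (4.71-fold, 75.3).

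**Figure D1:**
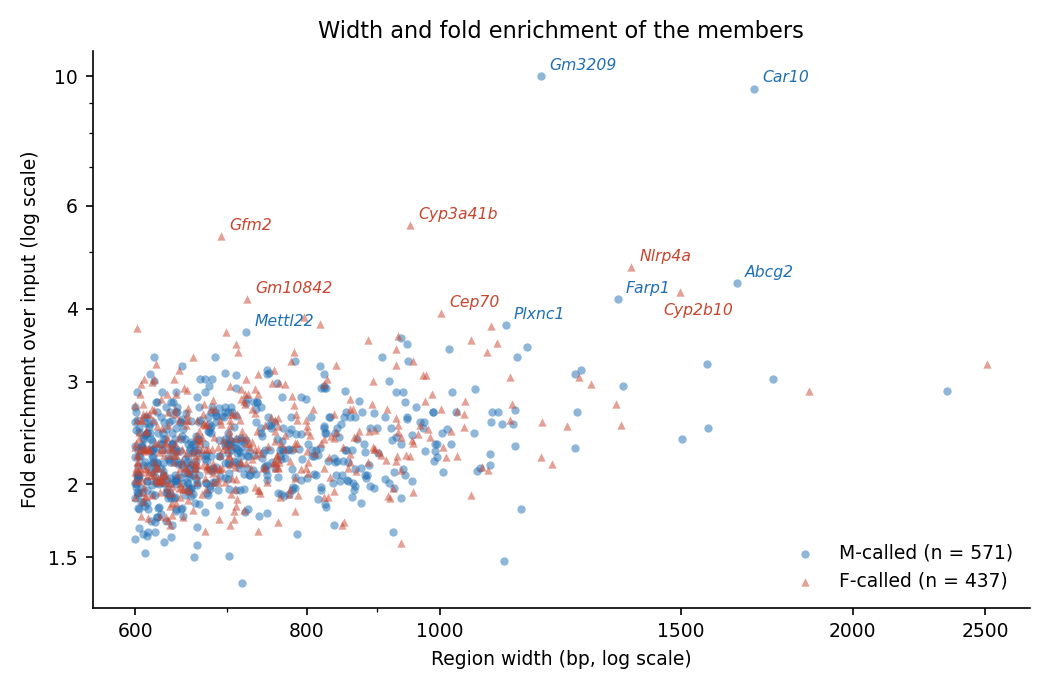
Width (bp) against fold enrichment over input for 571 M-called members (circles) and 437 F-called members (triangles), both axes on a log scale, with the nearest coding genes of the 6 most enriched members of each call. Both clouds lie on each other with medians of 2.28 and 2.30, and the 2 highest points, near Gm3209 and Car10, are M-called.

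The question of where the members lie was asked of measures that the choice did not use. They were distal to promoters, in either call. Only 37 M-called members (6.48%, 4.74 to 8.80) and 25 F-called members (5.72%, 3.90 to 8.31) lay within 2.5 kb of a coding transcript start. The difference was 0.759 percentage points (Newcombe 95% interval -2.36 to 3.71). Wide regions of all 4 lists lay there in 31.9% and wide regions of both CAST lists without a B6 peak in 17.5%, so members were less often near a coding start than regions that both sexes of CAST shared. Wide regions of a single B6 list were close to the members, with 6.07% (4.29 to 8.54) for males and 8.67% (6.62 to 11.3) for females, intervals that overlap those of the members. Median distance to the nearest coding start was 26.4 kb for M-called and 33.9 kb for F-called members, against 14.9 kb for all wide regions. With starts of all annotated transcripts, non-coding ones included, 14.9% of M-called and 10.1% of F-called members lay within 2.5 kb.

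Nearly as many members lay in introns as elsewhere. Coding gene bodies overlapped 357 M-called members (62.5%, 58.5 to 66.4) and 249 F-called members (57.0%, 52.3 to 61.5), against 64.6% of all wide union regions. The difference of 5.54 percentage points had an interval of -0.552 to 11.6, which left out 0 with shortened lists (0.774 to 12.2) and at a fold enrichment of 2 or more (0.358 to 13.7), and the share was higher for M-called members on 14 of 19 autosomes. Introns held 49.6% of M-called and 47.4% of F-called members, against 30.8% of wide regions of all 4 lists, 46.8% of wide regions of the B6 male list alone and 39.5% of those of the B6 female list alone. Another 34.9% and 38.9% lay between genes. Median GC content was 46.8% in M-called and 45.2% in F-called members and higher in M-called members on 16 of 19 autosomes, while wide regions of both CAST lists had 47.0%. In wide regions of a single B6 list the order was the reverse, with 43.0% for the male and 46.3% for the female list. M-called members outnumbered F-called ones on 17 of 19 autosomes, the exceptions being chromosome 1 (36 M-called, 40 F-called) and chromosome 7 (23 M-called, 37 F-called). The CAST male list is the longer one, and with every list shortened to 79862 peaks the order turned, to 546 M-called and 568 F-called members.

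**Figure D2:**
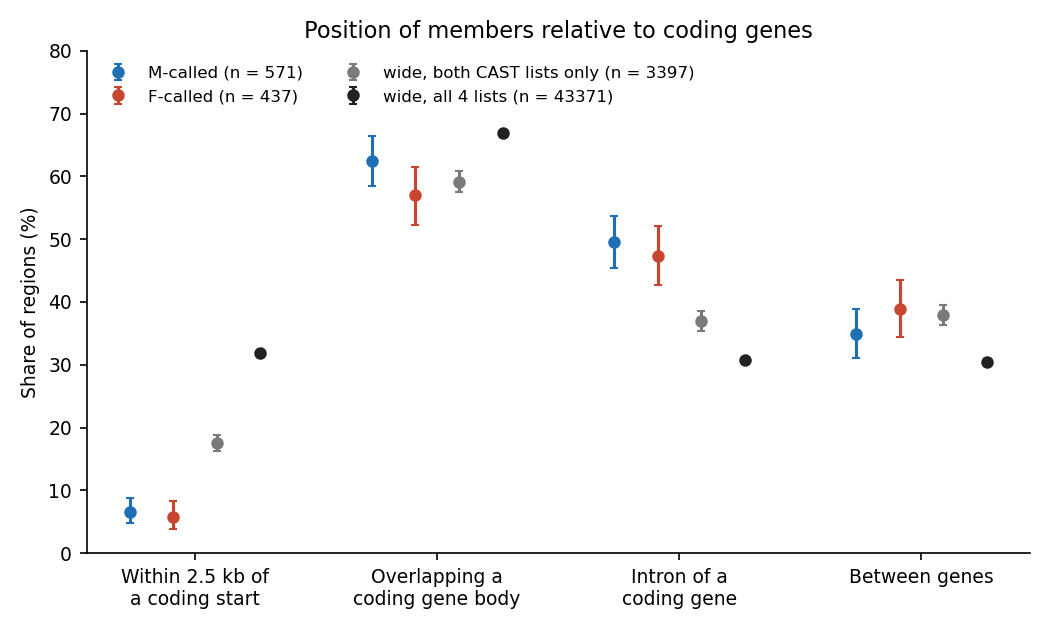
Share of regions (%, points, with 95% Wilson intervals as bars) within 2.5 kb of a coding start, overlapping a coding gene body, in an intron and between genes, for both calls and 2 sets of wide regions. Both calls lie near 6% at coding starts, where wide regions of all 4 lists reach 31.9%.

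Chromosome 7 and several other places held F-called members in groups. Members of the same call were chained when at most 50 kb apart. M-called members gave 517 single regions and 27 pairs, and no larger cluster. F-called members gave 375 single regions, 18 pairs and 7 clusters of 3 to 7 members. Clusters thus held 54 M-called members (9.46%, 7.32 to 12.1) and 62 F-called members (14.2%, 11.2 to 17.8). Counting neighbors of either call, 11.9% of M-called and 16.9% of F-called members had another member within 50 kb, a difference of -5.02 percentage points (-9.52 to -0.678). Without the largest cluster this difference was -3.83 (-8.26 to 0.436), so the interval reached 0 once 1 locus was left out. It also depended on the distance, with -0.829 (-4.29 to 2.43) within 20 kb and -5.07 (-10.4 to 0.186) within 100 kb. Of 79 pairs of neighboring members within 50 kb, 63 had the same call (79.7%, 69.6 to 87.1), where the totals of both calls give 50.9%. These were 27 male and 36 female pairs, with 16 mixed ones.

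The largest cluster spanned 134.2 kb of chromosome 10 (chr10:33252165-33386413) with 7 F-called members in and around Clvs2, which encodes clavesin 2, a lipid-binding protein of clathrin-coated vesicles best known from neurons. The span held 28 union regions and no B6 peak of either sex. CAST females had a peak in 22 of the regions and CAST males in 13, where 15 were of the female list alone, 6 of the male list alone and 7 of both. In each of the 7 regions of both CAST lists, fold enrichment was higher in females, between 2.34 and 3.83 against 2.29 to 3.14 in males. The smallest difference was 2.34355 against 2.34296, and pooled lists give no spread for these values. Fold enrichment of the 7 members ranged from 2.32 to 3.74. An M-called member (2.08-fold) lay among them, so CAST males had peaks at this locus too.

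The absence of B6 peaks reached much farther than the cluster. Between the neighboring B6 peaks, 1941 kb apart, lay 40 union regions of CAST alone, of which 21 were female-only, 7 male-only and 12 of both sexes. Among 93073 such stretches between neighboring B6 peaks, this was the highest number of CAST-only regions, and the runner-up, on chromosome 1, held 17. Stretches with 10 or more CAST-only regions numbered 15. Together they held 12 of the 437 F-called and 6 of the 571 M-called members. Of these, 7 F-called members and 1 M-called member lay in the Clvs2 stretch alone. Near Klrb1 and Clec2h, lectin receptor genes of the natural killer cell complex on chromosome 6, a stretch of 68.4 kb held 16 CAST-only regions with 2 F-called members and 1 M-called member. No number was missing from the B6 lists at the Clvs2 members, and at most 3.29% of the 32-base windows of any of the 7 occur more than once on the autosomes of mm9.

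The second cluster lay on the other side of a gap, at chr10:33531868-33600896, and held 4 F-called members at Sult3a1 and the predicted gene Gm10327. Unlike the Clvs2 span it was occupied in B6, where 7 of its 23 union regions had a B6 male peak and 7 a B6 female peak. All 23 had a CAST female peak and 15 a CAST male peak, and 8 were of CAST females alone. In counts of peaks over a gene, here and for the genes that follow, CAST peaks include any member that lies there, so a CAST difference between the sexes is partly fixed by the rule. Over Sult3a1 and 10 kb on each side B6 had 2 peaks in either sex, while CAST had 6 in males and 13 in females. Only CAST females had a peak within 1 kb of its start, with a fold enrichment of 2.44 at percentile 69.7. The widest F-called member, of 2507 bp, belonged to this cluster (chr10:33549698-33552204, 3.22-fold). Between 1.10% and 20.8% of the windows of these 4 members recur on the autosomes, and their number of copies in CAST was not tested.

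**Figure D3:**
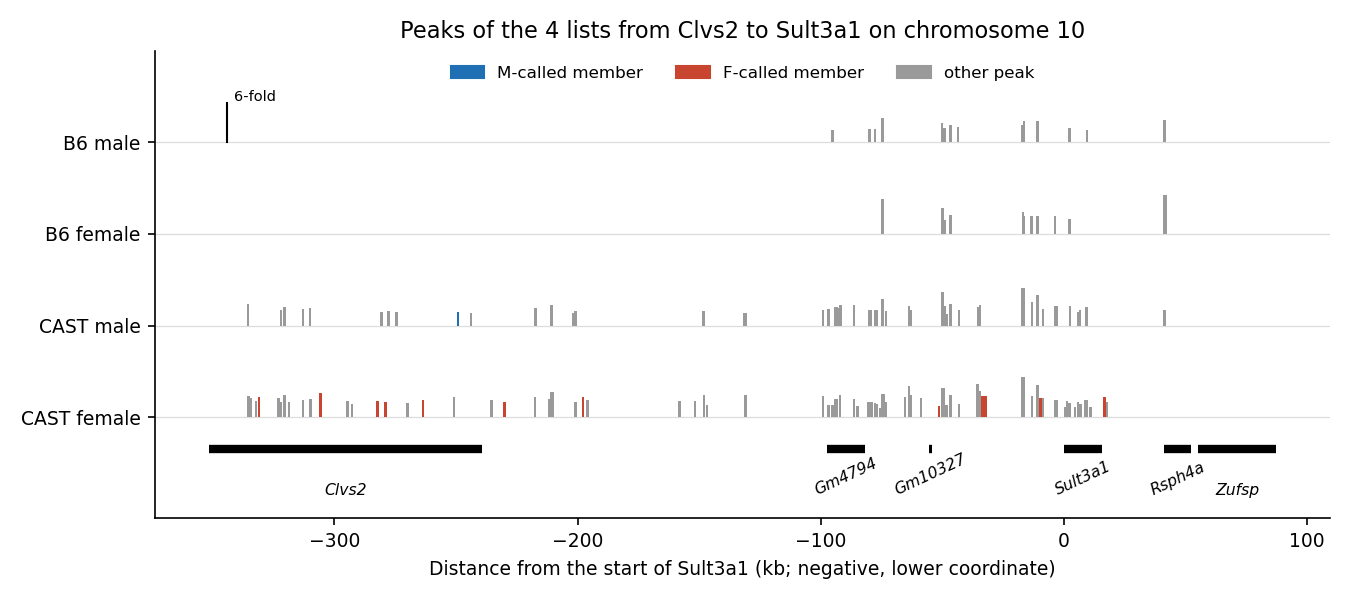
Peaks of each list along chromosome 10 from Clvs2 to Sult3a1, plotted by distance from the start of Sult3a1 (kb), with bar height as fold enrichment (the black bar is 6-fold), bars narrower than 1 kb drawn 1 kb wide, and coding genes in black. From Clvs2 to about 100 kb before Sult3a1 only the CAST lists have peaks, while around Sult3a1 all 4 lists do.

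At the Cyp2b genes on chromosome 7, 3 F-called members lay in 36.8 kb (chr7:26729175-26765986) between Cyp2b10, a P450 induced by many xenobiotics, and Cyp2b13, a P450 of female liver. They were the only peaks of any list in this span. Their fold enrichments were 4.27, 2.69 and 2.80. Over Cyp2b10 itself with 10 kb on each side, B6 males had 4 peaks against 10 of B6 females, and CAST males 3 against 9 of CAST females. Over Cyp2b13 the males of both strains had 0, B6 females 5 and CAST females 2. Both loci thus held more female than male peaks in B6, and the members added CAST female peaks where B6 females had none.

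At Cyp3a41b on chromosome 5, 2 F-called members (5.55-fold and 2.97-fold) lay in a span of 41.9 kb with 6 union regions, all with a CAST female peak. B6 females had a peak in 2 of them, CAST males in 1 and B6 males in none. Of the windows of these members 25.3% and 29.8% recur on the autosomes, and the Cyp3a genes here form a family of near-identical copies, so the copy that carries the peak is uncertain. A further F-called member lay 0.454 kb from the start of Cyp3a59 (2.30-fold, 23.3% of windows recurring). The sulfotransferase genes Sult2a3 and Sult2a6, also on chromosome 7, had 2 and 1 F-called members, and neither B6 nor the CAST male list had a peak over Sult2a3 and 10 kb on each side. Sult2a6 had 3 peaks in B6 females and 6 in CAST females, with 0 in either male list.

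The other F-called clusters of 3 members lay near Tle4, Bmper, Esrrg and, on chromosome 7, 9030624J02Rik and 2310008H09Rik, while a pair lay at Fmo2, a flavin monooxygenase gene. Beyond the 3′ end of Tle4, a Groucho-family corepressor, and at least 226.1 kb from its start, 3 members (3.76-fold at most) stood within 2.74 kb and no other list had a peak among them. At Bmper, 3 intronic members accompanied 27 CAST female peaks over the gene and 10 kb on each side, against 16 in CAST males, 21 in B6 females and 9 in B6 males. At Esrrg, which encodes an orphan nuclear receptor, 3 intronic members stood beside 31 CAST female, 18 CAST male, 32 B6 female and 15 B6 male peaks. Tle4 had 14, 12, 13 and 8 in the same order of lists, so each of these 3 genes had more female than male peaks in B6. The CAST female counts of Bmper and Esrrg include their 3 members. Slc4a4, a bicarbonate transporter, had 3 F-called members and 1 M-called member, with 53 CAST female peaks against 32 to 34 in the other lists. Btbd9 had 3 F-called members 32.5 to 147.0 kb from a coding start and 29 peaks in each CAST list, against 12 in B6 females and 16 in B6 males.

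M-called clusters were pairs. At Abcg2, an efflux transporter of the ABC family, the member of 4.42-fold and a weaker one in an exon spanned 24.4 kb at and beyond the end of the gene. Among the 7 union regions of this span, 6 had a CAST male peak, 3 a B6 male peak, 1 a CAST female peak and 0 a B6 female peak. Over Abcg2 and its flanks there were 14 CAST male, 9 CAST female, 12 B6 male and 6 B6 female peaks, the CAST male count including at least 1 of the members. Upstream of Farp1, a guanine nucleotide exchange factor, members of 4.15-fold and 2.93-fold were the only peaks of any list in 3.54 kb. Farp1 had 4 M-called members in all, the most of any gene for this call, and 38 CAST male peaks against 34 in CAST females, 30 in B6 males and 29 in B6 females. The pair at Pdlim3 and Ccdc110 spanned 25.9 kb with 3 union regions, all of the CAST male list alone. Outside this span, at chr8:46930517-46931182, an F-called member (2.58-fold) also had Pdlim3 as its nearest coding gene. The pair beyond D7Ertd443e lay in another stretch where B6 had no peak, with 14 CAST-only regions, of which 4 were male-only, 1 female-only and 9 of both sexes.

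Few genes gathered several members. The 1008 members had 893 nearest coding genes, 534 for M-called and 395 for F-called members, and 36 genes were nearest to both. At least 2 members fell to 34 genes among M-called and 32 among F-called members. At least 3 fell to Farp1 and Elk3, an ETS-family factor, among M-called members, and to Clvs2 (7), Bmper, Tle4, Esrrg, Slc4a4 and Btbd9 (3 each) among F-called members. Other genes with 2 M-called members included Rpl39l, Dip2c, Antxr2 and Mettl21d. Elk3 had 14 CAST male and 12 CAST female peaks over its locus, with 7 in B6 males and 10 in B6 females.

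Gene lists of known sex-biased liver expression, chosen with earlier results of these data known, divided the calls. The list of female-biased genes has 37 members on autosomes, and 14 of them were nearest to 17 F-called and 2 M-called members. Of 254 wide union regions nearest to this list, 6.69% were F-called and 0.787% M-called, beside 0.709% and 0.926% of all wide regions. The list of male-biased genes has 33, and 5 were nearest to 5 M-called and 0 F-called members, which made 2.42% M-called among 207 wide regions. These are counts over a chosen list, and no test was made on them. The lists rest on what is known mainly from laboratory strains such as B6, and expression was not analysed here. Not every bias holds in CAST. The study reports that Trim24, Tox and Sult3a1 lose their female bias in CAST liver. Trim24 and Sult3a1 were nearest to 2 F-called members each and Tox to 1, and these are among the 17.

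Among the female-biased genes, the enzymes included Cyp2b13, Cyp3a41b (2), Sult3a1 (2), Acot4, an acyl-CoA thioesterase, Nt5e, an ecto-nucleotidase, and Fmo2 (2). Transcriptional regulators were Cux2 (3.59-fold), a homeobox repressor of the female liver that also stands on the growth hormone list, Sall1 (3.37-fold), Trim24 (2.94-fold and 2.30-fold) and Tox (1.96-fold). The efflux transporter Abcb1a (2.58-fold, 14.6 kb from a coding start) and the neurotrophin receptor Ntrk2 (2.19-fold, 290.9 kb) had 1 F-called member each. Cd36, a fatty acid transporter with higher expression in females, went the other way with 2 M-called members (2.28-fold and 2.17-fold), 0.977 and 11.5 kb from a coding start. The male-biased genes were Moxd1 (2.51-fold), which encodes a monooxygenase-like protein, Keg1 (2.66-fold), Ugt2b38 (2.08-fold), a glucuronosyltransferase, Cyp7b1 (2.18-fold), an oxysterol hydroxylase, and Egfr (1.57-fold), the receptor of epidermal growth factor.

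B6 peaks at the listed genes mostly leaned to the same sex, but those at the genes nearest to members in general did not. The rule required that no B6 peak overlap a member, so these B6 peaks lie outside the members, and the B6 lists are not independent of the choice. Of the 13 female-biased genes with an F-called member, 9 had more B6 female than B6 male peaks over the gene and 10 kb on each side, 3 had equal numbers and Fmo2 had 6 against 7. At Cux2 there were 24 B6 female and 9 B6 male peaks, with 25 and 14 in CAST. Of the 5 male-biased genes with an M-called member, all 5 had more B6 male peaks. At Moxd1 there were 13 B6 male and 1 B6 female peak, with 16 and 4 in CAST, and at Cyp7b1 there were 29 and 14, with 39 and 28 in CAST. Genes of the lists without such a member leaned alike in B6, with 17 of 24 female-biased genes higher in the female list and 13 of 28 male-biased genes higher in the male list. The reverse lean was seen in 1 and 6 of these genes, so nothing here was particular to genes with members. Among all 498 genes nearest to M-called members alone, 156 had more B6 male and 179 more B6 female peaks (46.6% male, 41.3 to 51.9). Among the 359 nearest to F-called members alone the numbers were 96 and 133 (41.9%, 35.7 to 48.4), and both intervals hold the 44.0% of all coding genes.

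**Figure D4:**
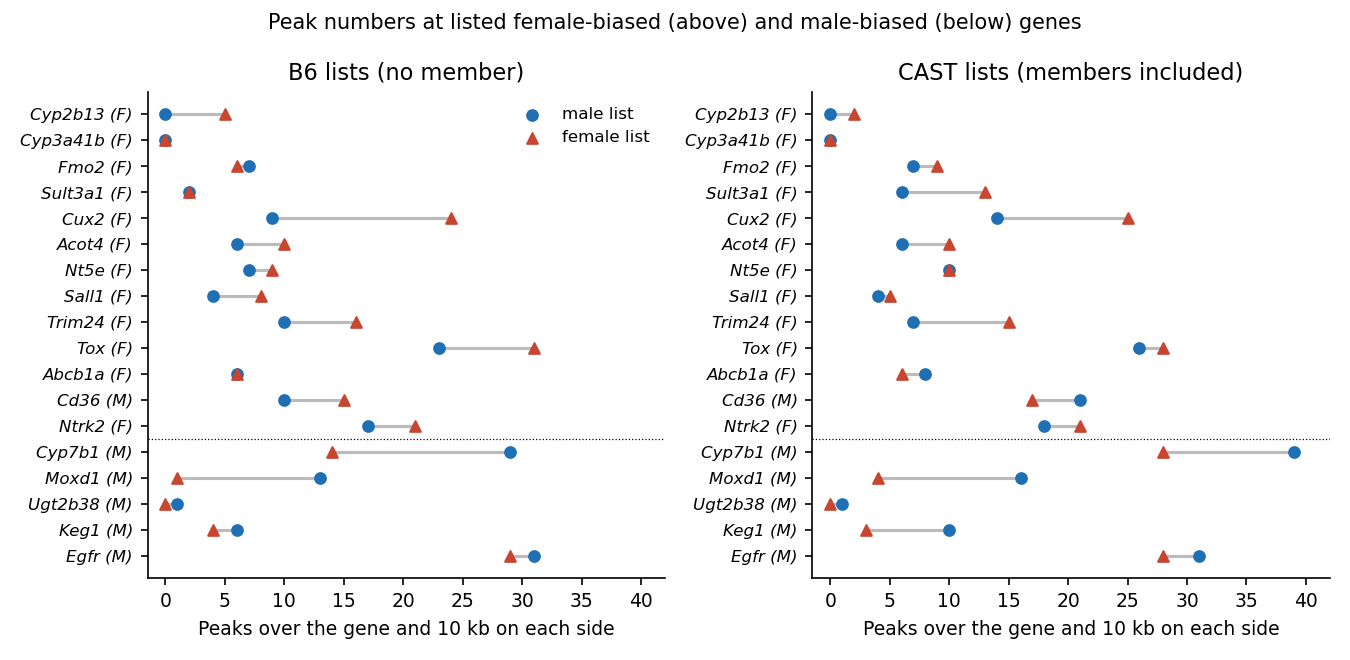
Peaks over each gene and 10 kb on each side in male lists (circles) and female lists (triangles), in B6 (left) and CAST (right), for 13 of the 14 female-biased and all 5 male-biased listed genes nearest to a member, with the call in brackets. In CAST, Cux2 has 25 female against 14 male peaks and Moxd1 4 against 16, while Cd36 has more male peaks in CAST (21 and 17) and more female peaks in B6 (15 and 10).

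Other lists are read against the same 0.709% F-called and 0.926% M-called of all wide regions. Sulfotransferase genes had 6 F-called members among 39 wide regions (15.4%) and 0 M-called, and flavin monooxygenase genes had 3 F-called (9.38%) and 1 M-called (3.12%) among 32. Cytochrome P450 genes had 6 F-called (2.03%) and 3 M-called members (1.02%) among 295. These genes overlap with the female-biased list, so their counts are not separate evidence. The 6 sulfotransferase members belonged to Sult2a3, Sult3a1, Sult2a6 and Sult1c2. Glucuronosyltransferase genes had 2 M-called members, at Ugt2b38 and Ugt1a10, among 68 wide regions (2.94%). Solute carriers lay near the overall shares, with 14 M-called (1.06%) and 11 F-called members (0.834%) among 1319. ABC transporters had 4 M-called (1.87%) and 2 F-called (0.935%) among 214, and serpins 2 (1.82%) and 1 (0.909%) among 110. Glutathione S-transferase, carboxylesterase and MHC genes had no member in 61, 81 and 28 wide regions. Growth hormone signaling genes had 1 F-called member (Cux2) in 270. Clock genes had 1 F-called member (Nfil3) in 156 wide regions (0.641%). Acute-phase genes had 1 F-called member (Crp, 96.3 kb from the start) in 85 (1.18%). Liver transcription factors had 1 of each call (Foxa1 M-called, Rxra F-called) in 315 (0.317% each). Zinc finger genes had 8 M-called (0.852%) and 4 F-called members (0.426%) among 939 wide regions. Olfactory receptor genes had 2 M-called members among 62 (3.23%) and vomeronasal receptor genes 2 F-called among 23 (8.70%), which are shares of few regions. Markers of immune cells, endothelium and bile duct cells had no member in 21, 71 and 48 wide regions. The hepatocyte list had 1 M-called member at Alb (1.63-fold) in 160, and the stellate cell and fibroblast list 1 M-called member at Hand2 (2.31-fold) in 23.

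Around the members, B6 regions with a peak in 1 sex leaned to the sex of the call. Within 50 kb of M-called members lay 965 regions with a B6 male and no B6 female peak and 826 of the reverse kind, a male share of 53.9% (51.6 to 56.2). Around F-called members the numbers were 545 and 636 (46.1%, 43.3 to 49.0), and over all union regions the share was 50.2%. The difference between calls was 7.73 percentage points (4.06 to 11.4). It was 11.7 points within 20 kb and 5.80 points within 100 kb. Neighboring regions are not independent of one another, so the interval understates the error.

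**Figure D5:**
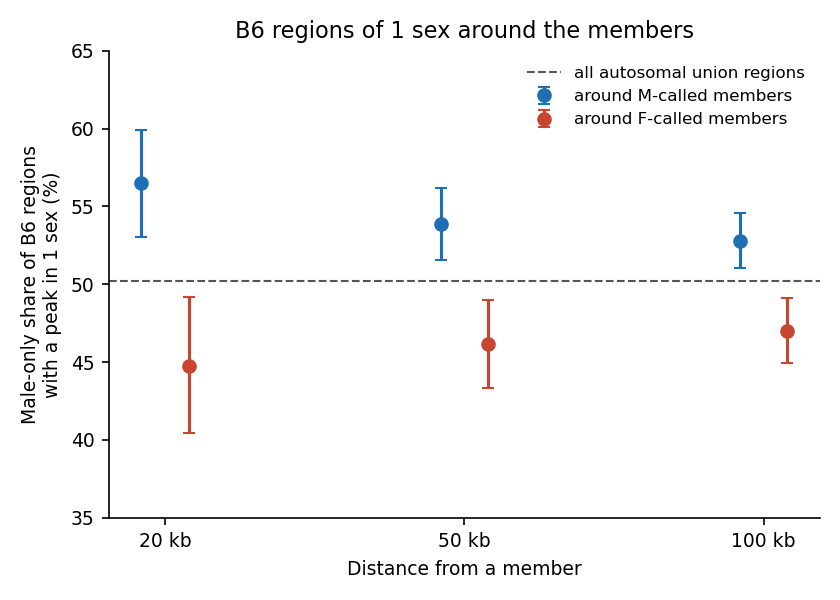
Male share (%, with 95% Wilson intervals) of B6 regions with a peak in 1 sex, by distance from M-called and F-called members, with the share over all union regions dashed. M-called members lie above the line and F-called members below it at 20, 50 and 100 kb.

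Strength of neighboring shared regions showed no such lean. For regions of all 4 lists within 50 kb, the median log2 ratio of female to male fold enrichment in B6 was 0.01 around members of either call and also over all such regions. In CAST it was -0.06 around M-called members, -0.08 around F-called members and -0.08 overall. The lean thus appeared in which regions were called and was not seen in the fold enrichment of regions called everywhere. Other lists had a peak within 1 kb of 32.6% of M-called and 31.1% of F-called members, so these members flanked a peak called elsewhere.

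Mapping bears on the members too. Share of 32-base windows found more than once on the autosomes reached 10% in 15 M-called members (2.63%, 1.60 to 4.29) and 15 F-called members (3.43%, 2.09 to 5.59), against 4.18% of wide regions of both CAST lists, and reached 50% in none. Members were therefore mostly of unique sequence in the B6 reference. The 30 exceptions included the strongest M-called member, near Gm3209, the F-called members at Cyp3a41b and Cyp3a59 given above, and the Sall1 member (16.3%). The Sult3a1 member at chr10:33600069-33600896 (20.8%) was also among them. The Sult3a1 member 9.27 kb from the start (7.58%) was not. Peak numbers were missing from a B6 list around 11 M-called and 6 F-called members and none was missing from the CAST lists. The study describes removing blacklisted and duplicate-only peaks, and the part of that step in these calls was not tested.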

How the data were processed

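H3K27ac was measured by ChIP-seq in 20 livers, with 4 inputs. The authors mapped uniquely placed reads with Bowtie2 (CAST reads to a CAST genome made from known SNPs and indels, with coordinates returned to mm9), merged the livers of a group and called peaks with MACS2 against input, and removed blacklisted and duplicate-only peaks. The deposited lists hold for each peak a score, a fold enrichment over input (a ratio) and −log10 p-values and q-values, of which the fold enrichment and the −log10 q-value were used here. Peaks were merged with Python 3.11.15 (numpy 2.4.6, pandas 2.3.3) and set against GENCODE vM1 genes by the nearest coding transcript start. The merging, distance and interval functions were tested on simulated peaks. Wilson and Newcombe 95% intervals cover counting error. With 1 pooled list a group no test of a condition could be made, and no p-value is given. Named genes were, for each call, the 10 genes nearest to most members, the 5 highest-ranked members with a fold enrichment of 1.5 or more, the 5 clusters with most members, every listed sex-biased or growth hormone gene nearest to a member, and examples of the other lists. Among these, 1 listed gene is counted but not reported here by name. Members, gene lists and motifs were chosen with earlier results of these data known. Klrb1, Clec2h, 9030624J02Rik and 2310008H09Rik, named beyond that rule, were chosen after their values were seen.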

Additional observations from a re-analysis of the deposited data

How the results depend on the processing

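No paired analysis was possible because each group is 1 pooled list without replicate values, and for the same reason no replicate could be left out. Recomputing 9 results under other settings gave 68 values within the limits of the reported ones and 11 that moved. The difference in the share near a coding start, whose interval holds 0, changed sign at a width of 500 bp (-0.239), at a fold enrichment of 2 or more (-0.178) and without a peak of another list within 1 kb (-0.121). No other difference changed sign. With a minimum width of 500 bp, members numbered 1193 M-called and 928 F-called, and 68.4% of neighboring pairs had the same call. At 800 bp they numbered 151 and 111, the difference in members with a neighbor was -9.54 percentage points, and the difference in the B6 male-only share was 15.3 points. That difference was 11.7 points within 20 kb. With every list shortened to 79862 peaks, the F-called share of members rose from 43.4% to 51.0% (48.1 to 53.9), with 546 M-called and 568 F-called, so the order of the calls reversed. Merging peaks up to 500 bp apart brought the GC difference from 1.64 to 0.937 percentage points. With starts of all annotated transcripts, the difference in the share near a start was 4.82 points (0.657 to 8.83) in place of 0.759. Without the largest F-called cluster, chosen after seeing the data, the difference in members with a neighbor was -3.83 (-8.26 to 0.436). Its interval also reached 0 within 20 kb (-0.829) and 100 kb (-5.07). The interval of the difference inside coding genes left out 0 with shortened lists (6.52, 0.774 to 12.2) and at a fold enrichment of 2 or more (7.06, 0.358 to 13.7). The causes of these moves were not tested. The peak lists give no depth in reads and read totals were not used here, so a missing peak does not show that signal was absent.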

Other observations

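By the same rule, the X chromosome, which the autosomal choice leaves out, gave 2 regions of the CAST male list alone and 9 of the CAST female list alone among 1732 union regions, and 31 wide regions of both CAST lists without a B6 peak. In B6, the corresponding wide regions of a single list on autosomes numbered 494 for males and 565 for females, so the female list gave more of them there. The B6 female list is also the longer one, with 80820 autosomal peaks against 78693. The part of list length in this order was not tested.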
